A study of Mus musculus with 12 samples.

Results

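Livers of male SGP and WT mice were compared at 6 months of age, the younger of the 2 ages profiled. SGP mice carry a transgene for sgp130Fc, a soluble form of the interleukin-6 (IL-6) co-receptor gp130 fused to an antibody Fc part, which traps IL-6 bound to its soluble receptor and so blocks IL-6 trans-signaling. The transgenic line was on C57BL/6N and its WT mates on C57BL/6J, and both groups, SGP+/+ and WT, are littermates from matings between carriers of 1 transgene copy, so all groups have a mixed 6N and 6J background. The promoter that drives the transgene is not given in the sources used here, and the transgene encodes a human protein, so reads on mouse Il6st do not check it. Libraries were assigned by their labels alone, which gave 3 WT and 3 SGP libraries of 6 months out of 12 samples in the series. At 14 months, 2 WT and 2 SGP libraries with values served only as a side-by-side reference. All mice were kept on standard chow in a specific-pathogen-free unit. The column names join a pair of codes whose meaning is not given, and the study counts its replicates as mice, so whether a library holds RNA of 1 mouse or more is unsure, and p-values measure only the spread between libraries, which may be technical.

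In mice, many liver genes differ between the sexes. The pituitary releases growth hormone in pulses in males and more steadily in females, and through the growth hormone receptor, JAK2 and STAT5b the pulses keep male-biased genes such as Cyp4a12, Elovl3 and the major urinary proteins high, while female-biased genes such as Cyp2b9, Cyp2a4 and Hamp2 stay low in the male liver. IL-6 acts on hepatocytes through a membrane receptor in classic signaling, or through a soluble receptor in trans-signaling, and both routes use gp130, JAK kinases and STAT3 to induce acute-phase proteins. Fatty acid synthesis in the liver is controlled by SREBP-1c and ChREBP, which raise genes such as Fasn, Scd1 and Elovl6 after feeding.

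RNA was profiled by CEL-Seq, which reads the 3' end of transcripts, and values are normalized counts, that is read counts divided by a size factor for each library. The 6 libraries held 3167214 to 4409900 reads on genes, detected 16722 to 21047 genes and had 25.8% to 28.9% of reads on the mitochondrial genome. Values of 1 read lay between 0.774 and 1.13 normalized counts. The sex stated for the mice was borne out in every library. Xist, the RNA of the inactive X chromosome, stood at 0 to 2.26 normalized counts, and the Y-linked Ddx3y stood at 191 to 258. Hepatocyte markers summed to 238000 to 258000 in WT and 230000 to 259000 in SGP, and Kupffer cell markers to 1780 to 2230 and 1770 to 2600. Endothelial markers summed to 851 to 908 in WT and 927 to 1020 in SGP without overlap, and their part in the results was not tested. In these whole-liver samples, fewer cells of a type and less RNA per cell cannot be told apart.

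Genes that differ between the sexes of mice were among those that differed between SGP and WT liver at 6 months, counted on lists written with earlier results of these data known. Of 44 male-biased genes with enough reads to test, 41 were lower in SGP, and the median of their log2 fold changes was -0.65. Of 35 female-biased genes, 27 were higher, with a median of 0.74, or 23 of 31 with a median of 0.57 without the 4 that had enough reads in SGP alone. Over all 11112 genes tested the median was 0.00. Fatty acid synthesis genes were also higher in 33 of 37 cases, by a median of 0.28, whereas the acute-phase genes that IL-6 induces had a median of -0.03. Fold changes are differences of log2(normalized count + 1) between SGP and WT, and stand with their SE in parentheses after the values of the 6 libraries.

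In limma, 8 genes passed the threshold of an adjusted p under 0.05, that is 0.072% of the 11112 genes tested. Hamp2, Ctse, Mfsd2a and Pm20d1 rose in SGP, and Cfhr2, Elovl3, Susd4 and Cyp4a12b fell. Hamp2 is female-biased, and Elovl3, Susd4 and Cyp4a12b are male-biased in the lists used here. At an unadjusted p under 0.05, 3.1% of genes were higher in SGP and 2.94% were lower. The 3 SGP libraries were all above the 3 WT libraries in 5.89% of genes and all below them in 5.34%. These shares are the background for the counts that follow. Scaled by reads outside the mitochondrial genome, the shares at an unadjusted p under 0.05 were 4.89% higher and 1.94% lower. Leaving out 1 library at a time gave 2 to 17 genes past the threshold, the fewest without WT library 2 and the most without SGP library 1, and Hamp2 and Ctse were past it each time. Pm20d1 lost the threshold without any 1 of the 6 libraries, with limma adjusted p from 0.0678 to 0.168, and each of the other 5 lost it without at least 2 of them.

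Hamp2 had the smallest p of all genes. It is a mouse paralog of Hamp, which encodes hepcidin, the liver hormone that lowers iron export through ferroportin. Both genes lie on chromosome 7 of GRCm38, Hamp2 at 30922072 to 30924681 and Hamp at 30942068 to 30944032, with 17386 bases between them. Hamp2 stood at 54.1, 73.7 and 104 normalized counts in the WT libraries and at 509, 659 and 597 in the SGP libraries. The lowest SGP library was far above the highest WT library, and the log2 fold change was 2.95 (SE 0.21, limma adjusted p = 9.20e-05). Hamp did not follow it. It stood at 8066, 10407 and 8851 in WT and 5705, 11053 and 11639 in SGP. The groups overlapped, and the difference was -0.01 (SE 0.23). SGP library 1 was the lowest of the 6 for Hamp, and without it the difference was 0.32. Reads of the pair may be shared where the transcripts are near-identical, which was not tested.

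The 250 bases before the RefSeq start of each gene (GRCm38.p6, minus strand, chr7:30944030-30944279 for Hamp and chr7:30924182-30924431 for Hamp2) are shown because the paralogs have similar promoters and different readouts. Capitals mark the STAT motif TTCNNNGAA and the BMP-responsive motif GGCGCC, both searched on both strands.
Hamp: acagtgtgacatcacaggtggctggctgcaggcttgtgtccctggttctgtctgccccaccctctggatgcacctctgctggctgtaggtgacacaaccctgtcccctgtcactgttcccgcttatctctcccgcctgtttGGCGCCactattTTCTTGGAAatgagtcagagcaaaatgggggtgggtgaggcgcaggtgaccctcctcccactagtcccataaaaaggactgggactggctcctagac
Hamp2: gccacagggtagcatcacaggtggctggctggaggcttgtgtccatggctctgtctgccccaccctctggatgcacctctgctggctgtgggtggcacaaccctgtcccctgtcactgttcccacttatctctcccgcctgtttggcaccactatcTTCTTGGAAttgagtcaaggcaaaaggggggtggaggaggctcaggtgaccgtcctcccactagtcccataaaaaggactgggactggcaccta
The Hamp2 window lies inside the span 30922072 to 30924681 given for this gene above, so the 2 annotations place its start differently. The windows were identical in 227 of 253 aligned columns (89.7%). Both held the same STAT match, 97 bases before the start in Hamp and 94 bases before it in Hamp2. In the BMP-responsive motif of Hamp, counted from 1 at its first base, the aligned bases of Hamp2 differed by G4A, so that the motif was matched in Hamp and not in Hamp2. Of 32851 promoter windows in the reference (250 bases before to 50 after a start), 8.3% held the STAT motif and 11.9% the BMP-responsive motif. Among the 8520 tested genes with a window, the shares were 8.04% and 23.9%. Among the tested members with a window, the STAT motif was found in 3 of 35 male-biased genes (8.57%), in 4 of 28 female-biased genes (14.3%) and in 0 of 30 fatty acid synthesis genes. Windows were given for 4 of the 8 genes past the threshold, and of these Hamp2 and Cfhr2 held a STAT match while Mfsd2a and Susd4 did not. A match or its absence in these windows says nothing of which factor acts on the gene.

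Ctse, which encodes the aspartic protease cathepsin E, went from almost no reads to a clear signal. The WT libraries had 4, 3 and 0 reads, which is 4.51, 3.30 and 0 normalized counts, and the SGP libraries had 244, 432 and 133 reads, which is 259, 334 and 134. With a WT mean of 2.6, Ctse passed the minimum mean of 5 normalized counts for testing through the SGP libraries alone. With so few reads in WT the fitted log2 fold change of 6.31 (SE 0.55, limma adjusted p = 0.000544) depends on the pseudocount and lay between 4.98 and 6.78 over the alternatives tried. Pm20d1, which encodes a secreted enzyme that joins fatty acids to amino acids, lies nearby. It stood at 186, 209 and 182 in WT and 380.3, 329 and 327 in SGP, a log2 fold change of 0.84 (SE 0.13, limma adjusted p = 0.0429). SGP libraries were close to each other and all above WT. Ctse spans chromosome 1 from 131638306 to 131675805 and Pm20d1 from 131797381 to 131821773, with 121575 bases between them. Because of this closeness the neighbourhood was examined after the values were seen. Of 12 other genes tested within 500 kb of the pair, none had an unadjusted limma p under 0.05. Of all genes, 3.1% were higher and 2.94% lower at that cutoff, and for 12 genes a count of 0 is near these shares. The differences of these neighbours ran from -0.58 to 0.60 and their smallest limma p was 0.0961. Whether the difference in this stretch is confined to Ctse and Pm20d1 was not tested. In all, 4 of the 8 genes past the threshold lie on chromosome 1, which holds 6.2% of the genes tested.

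Mfsd2a, a carrier of lysophosphatidylcholine and its long-chain fatty acids that the liver raises in fasting, stood at 37.2, 29.7 and 48.9 in WT and 119, 101.3 and 102 in SGP (chromosome 4, 122946550 to 122961188). The genotypes did not overlap, and the log2 fold change was 1.48 (SE 0.21, limma adjusted p = 0.0272).

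Among the genes that fell, Cfhr2 encodes a plasma protein of the complement system. It stood at 429, 423 and 463 in WT and 191, 208 and 239.6 in SGP (chromosome 1, 139803867 to 139858702). The values were tight in both groups and did not overlap, with a log2 fold change of -1.04 (SE 0.13, limma adjusted p = 0.0113). Elovl3, an elongase of very long fatty acids, stood at 999, 879.6 and 987 in WT and 512, 499 and 553 in SGP (chromosome 19, 46131897 to 46135607). It fell by 0.87 on the log2 scale (SE 0.11, limma adjusted p = 0.0113), again with little spread inside each group. Susd4, a membrane-bound inhibitor of complement, stood at 113, 119.8 and 104 in WT and 55.2, 29.4 and 29.2 in SGP (chromosome 1, 182763860 to 182896891), and fell by 1.60 (SE 0.24, limma adjusted p = 0.0429). Cyp4a12b, a fatty acid hydroxylase of the male liver, stood at 283, 519 and 330.2 in WT and 131, 58.02 and 122 in SGP (chromosome 4, 115411624 to 115439334), and fell by 1.89 (SE 0.29, limma adjusted p = 0.0432). Its paralog Cyp4a12a, with which it can share reads, was more abundant and stood at 2409.8, 3609.8 and 2541 in WT and 2678, 1924 and 1779.5 in SGP, a difference of -0.42 that did not pass the threshold. SGP library 1 overlapped WT for Cyp4a12a but not for Cyp4a12b.

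**Figure D1:**
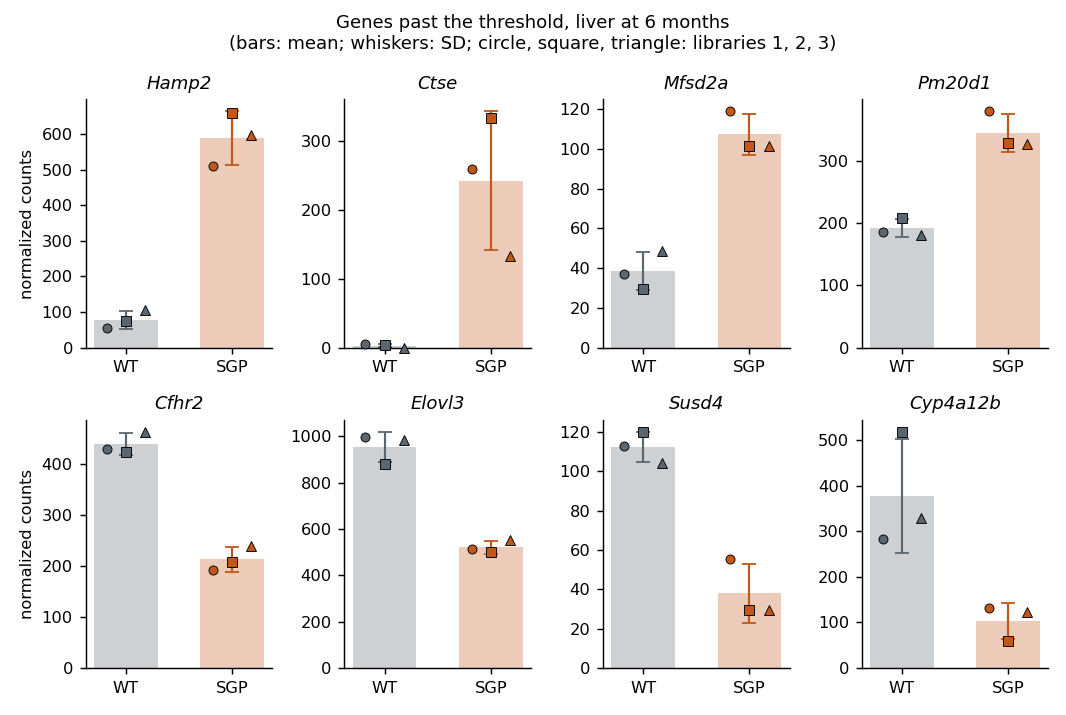
Normalized counts of the 8 genes past the threshold in each library at 6 months, with the mean as a bar from 0 and the SD as a whisker (3 libraries per genotype). In every panel the SGP libraries lie clear of the WT libraries, above them for Hamp2, Ctse, Mfsd2a and Pm20d1 and below them for Cfhr2, Elovl3, Susd4 and Cyp4a12b.

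Of 49 male-biased genes listed, 44 passed the minimum mean of 5 normalized counts over the 6 libraries, each of them in both genotypes. At an unadjusted p under 0.05, 32 of the 44 were lower in SGP and 0 were higher, against 2.94% and 3.1% of all genes. The SGP libraries lay below every WT library for 23 and above for 1, against 5.34% and 5.89% of all genes. The 3 members past the adjusted threshold were Elovl3, Susd4 and Cyp4a12b. Mup genes, whose transcripts are near-identical and can share reads, made up 8 of the 44, and without them 33 of 36 members were lower and 25 had an unadjusted p under 0.05.

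The size of the difference varied widely among the members. Hsd3b5, a steroid reductase found mainly in male liver, stood at 483, 581 and 475 in WT and 110.5, 6.19 and 103 in SGP, the lowest log2 fold change of all genes tested at -3.55 (SE 0.77). Serpina1e, an alpha-1 antitrypsin gene, stood at 19608, 25926 and 21358 in WT and 9385, 2323 and 6319.9 in SGP (-2.10, SE 0.37). Both were clear of WT in all 3 SGP libraries, with library 2 by far the lowest. Selenbp2, a selenium-binding protein gene, stood at 65.4, 584 and 208 in WT and 32.9, 17.8 and 37.2 in SGP (-2.79, SE 0.58), with a wide spread within WT.

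The major urinary proteins carry pheromones from the liver into urine. Mup11 stood at 27707, 31466 and 33033 in WT and 13565, 2614 and 10907 in SGP (-2.07, SE 0.45). Mup20, the male pheromone darcin, stood at 81386, 125403 and 132654 in WT and 88102, 41538 and 57217 in SGP (-0.90, SE 0.26), and here SGP library 1 overlapped WT. All 8 tested Mup genes were lower in SGP, and 7 of them had an unadjusted p under 0.05.

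Other members of the male-biased list carry bile acids, sense growth factors or modify steroids. Slco1a1, an uptake carrier for bile acids and other organic anions, stood at 532, 671 and 703 in WT and 489, 61.1 and 310.01 in SGP (-1.58, SE 0.54), with SGP library 2 far below the others. Egfr, the receptor for epidermal growth factor, stood at 299, 279 and 338 in WT and 235, 61.1 and 123 in SGP (-1.33, SE 0.35). Cyp7b1, the oxysterol hydroxylase of the alternative bile acid pathway, stood at 353, 676 and 653 in WT and 373, 166 and 229 in SGP (-1.15, SE 0.29). For Egfr the groups did not overlap, and for Cyp7b1 the lowest WT library was below the highest SGP library. Cyp2c70, which makes the muricholic acids of mouse bile, stood at 1672, 1886 and 1496 in WT and 1133, 858 and 1262 in SGP (-0.65, SE 0.15). Few members were near WT or above it. Cyp2d9, a steroid hydroxylase, stood at 3619.8, 5077 and 1670.3 in WT and 3014, 2192 and 3225 in SGP (-0.18, SE 0.31), and every SGP library lay inside the WT range.

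**Figure D2:**
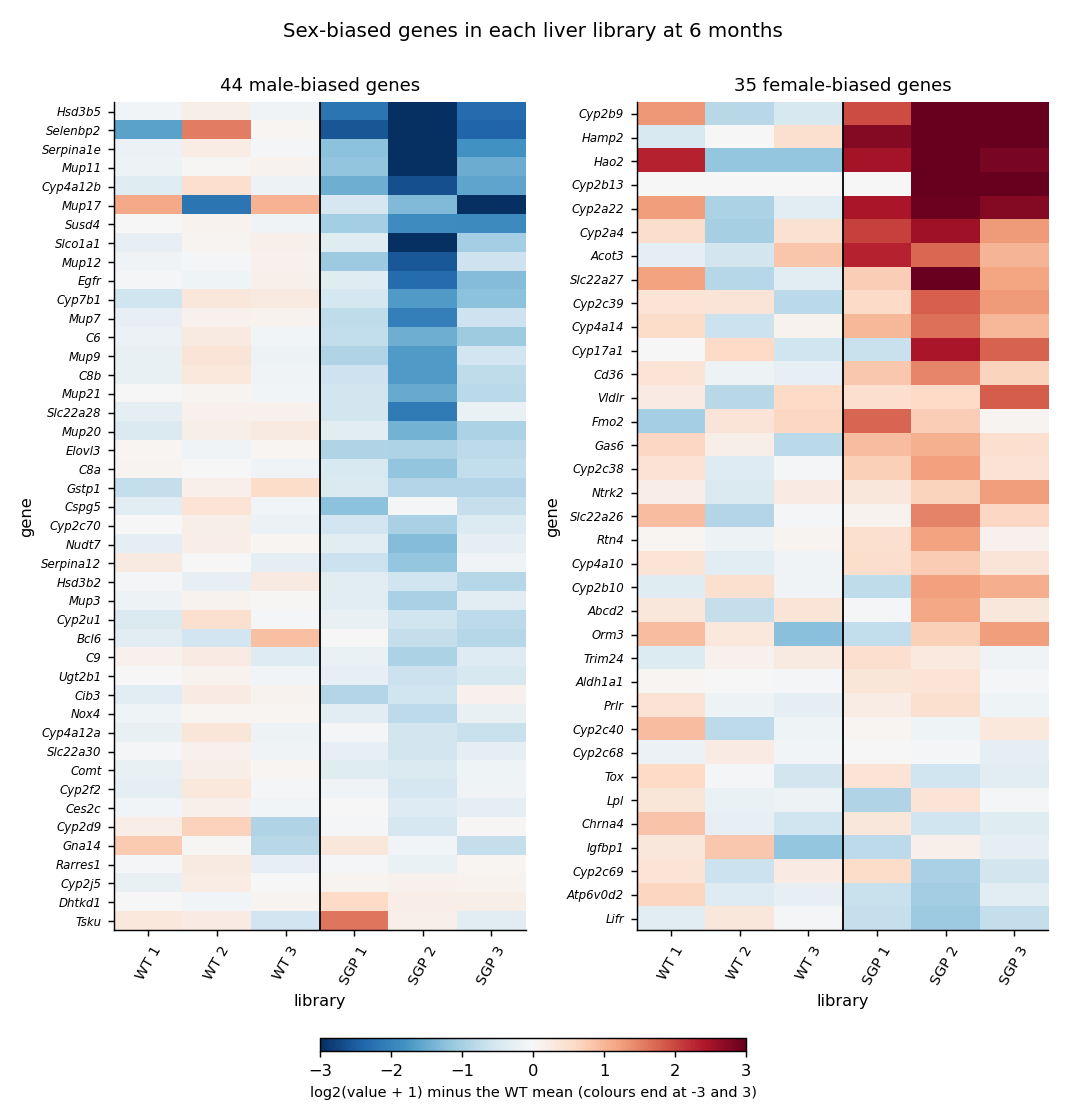
Each tested male-biased gene (left, 44) and female-biased gene (right, 35) in the 6 libraries of 6 months, coloured by log2(normalized count + 1) minus the WT mean, with colours ending at -3 and 3. SGP columns are mostly blue on the left and mostly red in the upper part on the right, and SGP library 2 has the deepest colours.

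The female-biased genes went the other way, less evenly. Of 52 genes listed, 35 were tested, and 17 had too few reads, among them the female-specific Cyp3a41a, Cyp3a41b, Sult2a1 and Sult2a2, which had no read in any of the 6 libraries. At an unadjusted p under 0.05, 15 of the 35 were higher in SGP and 1 was lower, against 3.1% and 2.94% of all genes. The SGP libraries lay above every WT library for 11, against 5.89% of all genes. Hamp2 was the member past the adjusted threshold. Cyp2b13, Hao2, Cyp2c39 and Vldlr were carried over the minimum by the SGP libraries alone. Without these, 23 of 31 members were higher, 12 of them at an unadjusted p under 0.05, with a median of 0.57.

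Cyp2b9, a cytochrome P450 of the female liver, stood at 46.2, 9.90 and 12.9 in WT and 74.4, 326 and 165 in SGP (3.05, SE 0.55, limma adjusted p = 0.0761). Cyp2a22 stood at 23.7, 4.40 and 7.38 in WT and 55.2, 78.1 and 69.5 in SGP (2.71, SE 0.45, limma adjusted p = 0.0532). Cyp2a4, a testosterone hydroxylase, stood at 14.7, 4.40 and 13.8 in WT and 43.6, 61.9 and 25.2 in SGP (1.96, SE 0.44). All 3 have close paralogs with which reads can be shared, and all 3 were low in WT and higher in every SGP library. Cyp2b13 was listed at 0 in the WT libraries and in SGP library 1, and at 33.3 and 9.06 in SGP libraries 2 and 3. Cyp4a14, a fatty acid hydroxylase and a target of PPAR-alpha, stood at 707, 309 and 525 in WT and 965, 1532 and 966 in SGP (1.21, SE 0.26). Cyp17a1, an enzyme of steroid synthesis, stood at 57.5, 88.0 and 37.8 in WT and 36.1, 318 and 200.3 in SGP (1.19, SE 0.60), where library 1 was lower than any WT library and the others were above.

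Of the 8 female-biased members that were lower, 1 had an unadjusted p under 0.05. This was Lifr, the receptor for leukemia inhibitory factor and a partner of gp130. It stood at 277, 442 and 338 in WT and 215, 163 and 211 in SGP, a difference of -0.83 (SE 0.18), with every SGP library below WT. It is female-biased in the list but was lower, as most male-biased genes were.

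SGP library 2 stood apart in these lists. It had the lowest value of the 6 libraries for 30 of the 44 male-biased genes and the highest for 21 of the 35 female-biased genes. Averaged over the male-biased genes, SGP libraries 1 to 3 lay -0.51, -1.34 and -0.76 log2 units from the WT mean, while the WT libraries lay at -0.13, 0.14 and -0.01. Averaged over the female-biased genes they lay at 0.56, 1.2 and 0.81, with WT at 0.39, -0.24 and -0.15. In both lists SGP library 2 lay farthest from WT and SGP library 1 nearest. Without SGP library 2, 40 of the 44 male-biased genes were lower, 22 at an unadjusted p under 0.05, with a median of -0.55. Of the 35 female-biased genes, 27 were higher, 10 at an unadjusted p under 0.05, with a median of 0.37. This library also had the most reads of the 6, 4409900.

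The genes of the growth hormone pathway itself went both ways. Of 15 tested, 8 were higher and 7 lower, with a median of 0.02. At an unadjusted p under 0.05, 1 was higher and 2 were lower, against 3.1% and 2.94% of all genes. Socs2, an inhibitor that STAT5 induces, stood at 83.5, 142 and 76.5 in WT and 72.2, 30.2 and 68.4 in SGP (-0.85, SE 0.32), with no overlap. Onecut1, the liver transcription factor HNF6, stood at 51.9, 62.7 and 28.6 in WT and 36.1, 13.9 and 31.2 in SGP (-0.83, SE 0.37). Esr1, the estrogen receptor alpha, stood at 126.3, 81.4 and 53.5 in WT and 112, 127 and 136 in SGP (0.60, SE 0.25). For Onecut1 and Esr1 the groups overlapped. The receptor Ghr stood at 1129, 1160.0 and 982 in WT and 1057, 860.2 and 976 in SGP (-0.18, SE 0.12), Stat5b differed by 0.11 (SE 0.29), and Igf1, the growth factor that growth hormone induces, differed by -0.14 (SE 0.11). None of these 3 had an unadjusted p under 0.05, and the levels of the proteins and of growth hormone were not measured here.

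Most genes that make fatty acids were higher in SGP. Of 39 listed, 37 were tested and 33 were higher, 18 of them at an unadjusted p under 0.05, against 3.1% of all genes. Pnpla5, a lipase gene, passed the minimum through the SGP libraries alone, and without it 32 of 36 were higher, 17 at an unadjusted p under 0.05, with a median of 0.27. The SGP libraries lay above every WT library for 16 of the 37, against 5.89% of all genes. The member past the adjusted threshold went the other way: it was Elovl3, which is also male-biased and makes very long fatty acids. The genes are described here in the order of the pathway. Acly, which makes cytosolic acetyl-CoA from citrate, stood at 585, 704 and 692 in WT and 1296, 893 and 932 in SGP (0.64, SE 0.15). Me1, which supplies NADPH, stood at 568, 862 and 957 in WT and 1685, 1647 and 1257 in SGP (0.96, SE 0.18). Fasn, the fatty acid synthase, stood at 483, 382 and 359 in WT and 762, 722 and 567 in SGP (0.74, SE 0.15). In these the SGP libraries were all above WT.

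Elovl6, which lengthens palmitate, stood at 165, 126.5 and 152 in WT and 411, 283 and 259 in SGP (1.08, SE 0.18, limma adjusted p = 0.0532), the smallest p among the members that were higher. Scd1, the desaturase that makes oleate, stood at 5234, 3560.3 and 2999 in WT and 6987, 6920.2 and 6316 in SGP (0.82, SE 0.17). Pklr, the glycolytic pyruvate kinase of the liver, stood at 136, 187 and 159.6 in WT and 259, 236 and 225 in SGP (0.58, SE 0.15). Again no SGP library was as low as any WT library. The genes of the transcription factors that control the pathway overlapped between genotypes. Srebf1, the gene for SREBP-1, stood at 324, 216 and 247 in WT and 450.5, 276 and 232 in SGP (0.25, SE 0.22), and Mlxipl, the gene for ChREBP, at 330.4, 486 and 347 in WT and 373, 317 and 325 in SGP (-0.18, SE 0.15). Without SGP library 1 the difference in Srebf1 was -0.03. SGP library 1 also had the highest mean over this list, 0.58 above WT, while libraries 2 and 3 lay 0.34 and 0.32 above. It is not the library that stood apart in the sex-biased lists. Without it, 27 of 36 members were higher, 13 at an unadjusted p under 0.05.

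**Figure D3:**
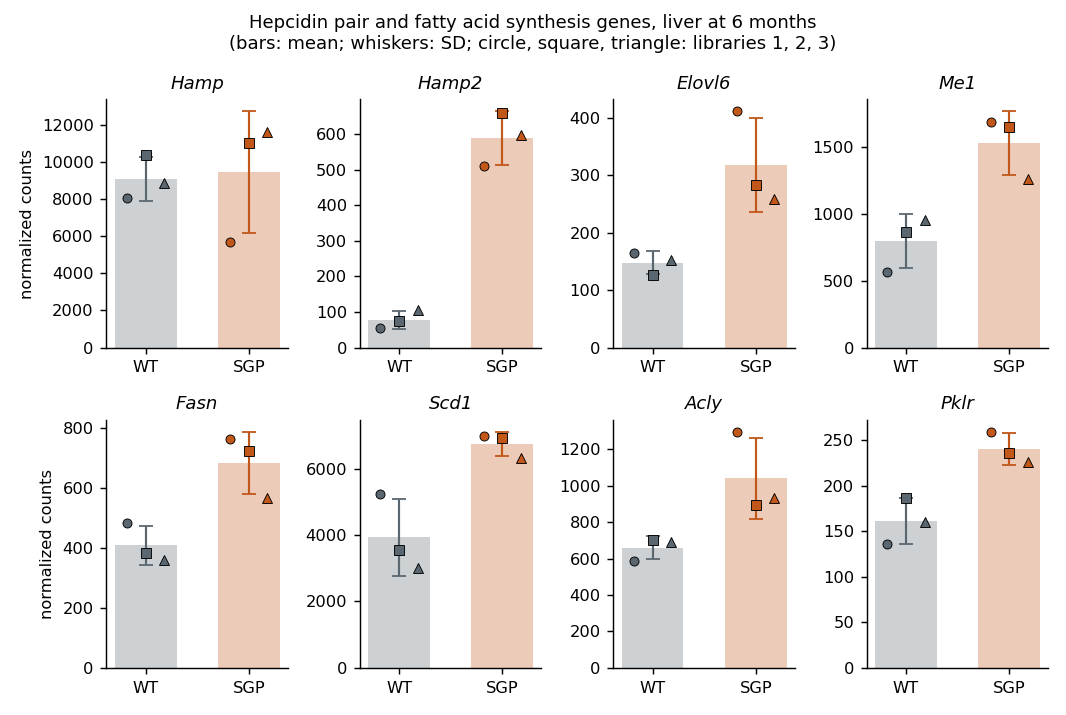
Normalized counts of Hamp, Hamp2 and 6 genes of fatty acid synthesis in each library at 6 months, with the mean as a bar from 0 and the SD as a whisker (3 libraries per genotype). Hamp overlaps between genotypes while Hamp2 does not, and for Elovl6, Me1, Fasn, Scd1, Acly and Pklr every SGP library lies above the WT libraries.

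Genes of fat uptake and storage were higher in 25 of 32 cases, with a median of 0.23, and 6 had an unadjusted p under 0.05 against 3.1% of all genes. Vldlr, a lipoprotein receptor gene, passed the minimum through the SGP libraries alone, and without it 24 of 31 were higher, with a median of 0.20. Mfsd2a and Pm20d1 were the members past the adjusted threshold, both higher in SGP. Cd36, a fatty acid uptake receptor, stood at 113, 75.9 and 71.9 in WT and 151, 238 and 136 in SGP (0.99, SE 0.23). Cidec, a protein that enlarges lipid droplets, stood at 49.6, 9.90 and 36.9 in WT and 71.2, 113 and 78.5 in SGP (1.66, SE 0.45). Its relative Cidea stood at 103, 3.30 and 49.8 in WT and 46.8, 274 and 128 in SGP (2.07, SE 0.93), with a range inside WT so wide that the groups overlapped. Plin2, the coat protein of liver lipid droplets, stood at 1927, 1767 and 2449.6 in WT and 2041, 3089 and 2214 in SGP (0.25, SE 0.16). Markers of adipocytes summed to 75.6, 22.0 and 42.4 in WT and 78.6, 141 and 87.6 in SGP. Cidec itself is 1 of these markers and made up most of each SGP sum. The rest of the sums overlapped between genotypes. Adipoq was at 0, 1.1 and 0 in WT and 0, 6.96 and 0 in SGP, and Plin1 was at 0 in all libraries but SGP library 2, where it was 7.74. The part of adipocyte RNA in SGP library 2 was not tested.

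PPAR-alpha drives fatty acid oxidation, and 34 of its 42 tested targets were higher, with a median of 0.18. At an unadjusted p under 0.05, 12 were higher and 0 lower, against 3.1% and 2.94% of all genes. Acot3, a peroxisomal thioesterase, stood at 39.5, 33.0 and 86.7 in WT and 244, 161 and 99.6 in SGP (1.68, SE 0.36). Acaa1b, a peroxisomal thiolase, stood at 2508, 2735 and 3187 in WT and 4607, 5642 and 3352 in SGP (0.66, SE 0.17). Cpt1a, the gate of mitochondrial fatty acid oxidation, stood at 356, 421 and 487 in WT and 492, 431 and 523 in SGP (0.20, SE 0.14). The first 2 were clear of WT and Cpt1a was not. Acot3, Cyp4a10 and Cyp4a14 are also in the female-biased list.

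In cholesterol synthesis fewer genes had a small p. Of 34 genes tested, 21 were lower, with a median of -0.10. The 3 with an unadjusted p under 0.05 were all lower, against 2.94% of all genes. They were Idi1, Msmo1 and Cyp51, enzymes of the middle and late steps of the pathway. Idi1 stood at 174, 208 and 175 in WT and 113, 97.5 and 112 in SGP (-0.78, SE 0.14, limma adjusted p = 0.0871). Msmo1 differed by -0.52 (SE 0.15) and Cyp51 by -0.37 (SE 0.12). In all 3 the SGP libraries lay below WT.

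**Figure D4:**
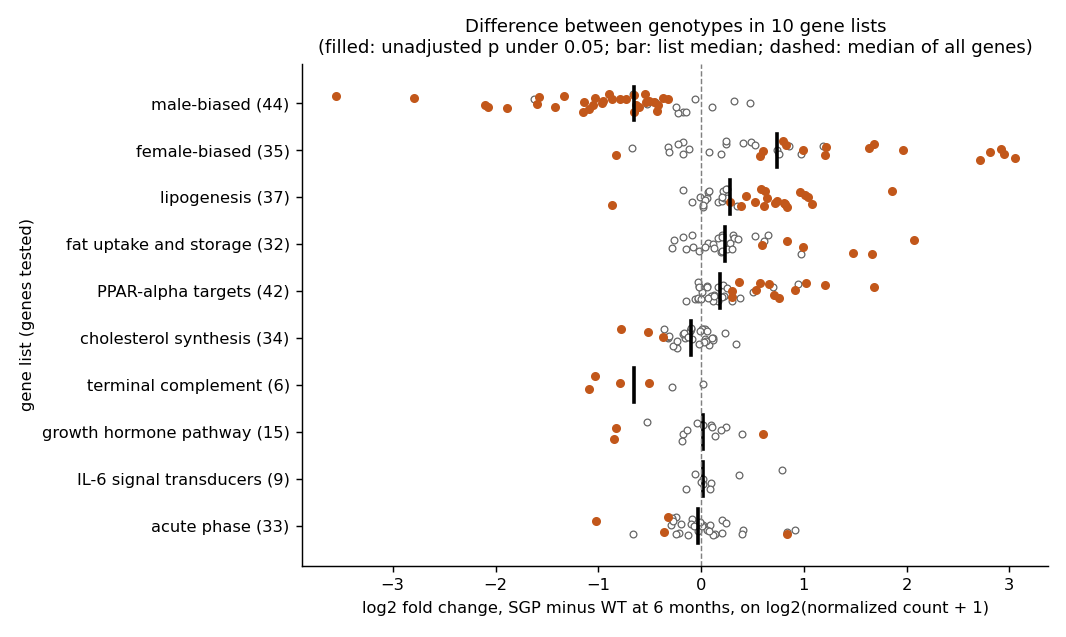
Log2 fold change of SGP minus WT at 6 months for each tested gene of 10 lists, with filled points for an unadjusted p under 0.05, a bar at the list median and a dashed line at the median of all genes. The medians stand at -0.65 for male-biased, 0.74 for female-biased and 0.28 for lipogenesis genes, and at -0.03 for acute-phase genes.

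The complement genes are given by their place in the cascade. The terminal components, which form the membrane attack complex, were lower in 5 of 6 cases, with a median of -0.65. At an unadjusted p under 0.05, 4 were lower, against 2.94% of all genes. These 4, C6, C8a, C8b and C9, are also in the male-biased list. C6 stood at 533, 734 and 568 in WT and 363, 217 and 289 in SGP (-1.09, SE 0.18, limma adjusted p = 0.0532). C8a stood at 3015, 2884 and 2669 in WT and 2072, 1260.1 and 1706 in SGP (-0.79, SE 0.16). Both were clear of WT in every SGP library. C8g, which encodes the third chain of C8 and is not in the male-biased list, stood at 1259.6, 1427 and 1365 in WT and 1391, 1339.8 and 1369 in SGP (0.02, SE 0.10). Of 20 early components, 13 were lower, with a median of -0.07. None had an unadjusted limma p under 0.05, which for 20 genes is near the shares of all genes, 3.1% higher and 2.94% lower. The SGP libraries lay below every WT library for 2 of the 20, against 5.34% of all genes. C3, the central component, differed by -0.07 (SE 0.12). Among 15 regulators, Cfhr2 and Susd4 were past the adjusted threshold, both lower in SGP.

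Genes of the IL-6 pathway itself had a small p at this age about as often as all genes did. Of 9 gp130 family ligands, 8 had too few reads to test, and Lif, Osm, Cntf and Il31 had no read in any library. At this depth a count of 0 allows up to 3 reads, or 2.32 to 3.38 normalized counts in a library, which covers counting error only. Il6st, the mouse gp130 gene, stood at 269.5, 239 and 222 in WT and 266, 224 and 228 in SGP (-0.02, SE 0.13). Il6ra, the IL-6 receptor gene, stood at 68.8, 85.8 and 59.0 in WT and 85.0, 44.9 and 45.3 in SGP (-0.33, SE 0.26). Stat3 stood at 156, 121 and 147 in WT and 119, 144 and 118 in SGP (-0.15, SE 0.16), and its feedback inhibitor Socs3 at 11.3, 15.4 and 4.61 in WT and 7.44, 5.41 and 4.03 in SGP (-0.68, SE 0.50). All of these overlapped between genotypes. Tested were 6 receptors and receptor-shedding enzymes, 9 kinases and transcription factors and 6 inhibitors. Of these, Lifr had the 1 unadjusted p under 0.05 and was lower in SGP. This count is near the shares of all genes, 3.1% higher and 2.94% lower.

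Acute-phase genes are the main liver targets of IL-6, and 15 of 33 tested were higher and 18 lower in SGP. At an unadjusted p under 0.05, 1 was higher and 3 lower, shares near those of all genes in the upward direction (3.1%) and above them in the downward direction (2.94%). Saa1, serum amyloid A, stood at 466, 261 and 348 in WT and 361, 352 and 404 in SGP (0.09, SE 0.18). Fgb, a fibrinogen chain, stood at 6272, 4957 and 4679.7 in WT and 3761, 3926 and 4700.4 in SGP (-0.36, SE 0.13). Serpina3k, which has close paralogs, stood at 13588, 19257 and 16261 in WT and 10236, 4944 and 10182 in SGP (-1.02, SE 0.24) and was the member of this list with the smallest p. The metallothionein Mt1 was the member that was higher at an unadjusted p under 0.05. It stood at 262, 176 and 303.4 in WT and 248, 369 and 879 in SGP, and SGP library 3 alone lay far above the rest.

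Detoxifying enzymes split in both directions. Of 69 enzymes of the first phase, 16 were higher and 13 lower at an unadjusted p under 0.05, against 3.1% and 2.94% of all genes. Of the tested members, 8 are in the male-biased and 14 in the female-biased list. Aox3, an aldehyde oxidase in neither, stood at 1565, 1953 and 2069 in WT and 1186, 859 and 1222 in SGP (-0.78, SE 0.15). Cyp1a2, a P450 of the pericentral liver, stood at 2619.6, 3133 and 2485 in WT and 2535, 1538 and 1620.5 in SGP (-0.56, SE 0.17). Among 40 conjugating enzymes, 8 were higher and 4 lower at an unadjusted p under 0.05, against the same shares of all genes. Gsta2, a glutathione transferase, stood at 277, 325 and 233.3 in WT and 475, 379 and 382 in SGP (0.57, SE 0.15), and Gstm3, another, at 249, 139.6 and 151 in WT and 267, 709 and 293 in SGP (1.13, SE 0.32). Every SGP library was above WT for both, and Nfe2l2, the gene for the transcription factor NRF2 that induces such enzymes, stood at 129.7, 104 and 148 in WT and 170.0, 183 and 175 in SGP (0.48, SE 0.15), also without overlap.

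Interferon-induced genes were higher in 22 of 29 cases, with a median of 0.20. At an unadjusted p under 0.05, 6 were higher and 0 lower, against 3.1% and 2.94% of all genes. Averaged over the list, SGP libraries 2 and 3 lay 0.64 and 0.39 above the WT mean but library 1 lay at -0.35, below every WT library, so that the groups overlapped. Irf7, a transcription factor of the interferon response, stood at 197, 183 and 166 in WT and 198, 338 and 259 in SGP (0.51, SE 0.18). Of the iron genes other than Hamp2, the ferritin chain Fth1 stood at 5511, 5635 and 5532 in WT and 6758, 7295 and 6276 in SGP (0.28, SE 0.10), and the BMP target Id1, which rises with the signal that induces hepcidin, at 39.5, 24.2 and 43.4 in WT and 19.1, 34.0 and 26.2 in SGP (-0.41, SE 0.29). Of 31 bile acid genes, with a median of -0.02, 2 were higher and 4 lower at an unadjusted p under 0.05, against 3.1% and 2.94% of all genes. The lower ones were Akr1c6 and the genes Slco1a1, Cyp7b1 and Cyp2c70, which are also in the male-biased list. Cyp7a1, the rate-limiting enzyme of the classic pathway, stood at 59.8, 125 and 101.5 in WT and 236, 91.3 and 103 in SGP (0.51, SE 0.34). Of 26 genes of glucose metabolism, with a median of 0.04, 5 were higher and 1 lower at that cutoff, against the same shares of all genes. The lower one, Irs2, an adaptor of the insulin receptor, stood at 45.1, 20.9 and 51.6 in WT and 18.1, 11.6 and 18.1 in SGP (-1.18, SE 0.35), with no overlap. The clock gene Nr1d1 stood at 834, 1006 and 1138 in WT and 842, 501 and 738 in SGP (-0.54, SE 0.18), and the clock output gene Dbp at 28.2, 69.3 and 159 in WT and 220.98, 15.5 and 174 in SGP, a range that overlapped between genotypes. The hour at which each liver was taken is not given in the sources used here. Nnt, which carries a deletion in C57BL/6J but not in C57BL/6N, was at 1.13, 8.80 and 12.0 in WT and 4.25, 2.32 and 4.03 in SGP.

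The genes with the next smallest p after those past the threshold included several with large differences that are not described above. Rad51b, a DNA repair gene, stood at 9.02, 2.2 and 1.84 in WT and 24.4, 60.3 and 35.2 in SGP (3.09, SE 0.51, limma adjusted p = 0.0532). With a WT mean of 4.35, it passed the minimum mean of 5 through the SGP libraries alone. Avpr1a, the liver receptor for vasopressin, stood at 88.0, 61.6 and 63.6 in WT and 30.8, 29.4 and 27.2 in SGP (-1.24, SE 0.21, limma adjusted p = 0.0532). Fermt2, an activator of integrins, stood at 162, 188 and 178 in WT and 92.4, 95.9 and 111 in SGP (-0.82, SE 0.14). The genotypes did not overlap for any of these 3. Wfdc2, a secreted protease inhibitor of epithelia, stood at 58.6, 72.6 and 60.9 in WT and 170.0, 149 and 97.6 in SGP (1.07, SE 0.21). Cyp2c23, an epoxygenase, differed by -0.68 (SE 0.12), and the pseudogene Adh6-ps1 by -1.24 (SE 0.21). Cela1, an elastase listed as a marker of the pancreas, stood at 229, 244 and 276 in WT and 134, 78.9 and 134 in SGP (-1.14, SE 0.20), while the other tested pancreas marker, the chymotrypsinogen Ctrb1, went the other way, at 4.51, 6.60 and 2.77 in WT and 20.2, 10.1 and 13.1 in SGP (1.46, SE 0.45). Ctrb1, with a WT mean of 4.63, also passed the minimum through the SGP libraries alone. The pancreatic trypsinogen Prss2 was at most 3.19 and the carboxypeptidase Cpa1 at most 7.44 in any of the 6 libraries.

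The same lists are set beside their values at 14 months, from a separately normalized table with 2 libraries per genotype. Of the 44 male-biased genes, 36 were higher in SGP at 14 months and 8 lower, with a median of 0.38. Their mean over the list lay 0.50 and 0.28 above WT in the SGP libraries. Of the 35 female-biased genes, 23 were higher, with a median of 0.29, and here the groups overlapped, with SGP at -0.04 and 0.50 and WT at -0.31 and 0.31. Over all genes tested at 6 months the median at 14 months was 0.02. Of the 33 acute-phase genes, 32 were lower in SGP at 14 months, with a median of -1.57. Of 19 immediate early, heat shock and metallothionein genes, 18 were lower. Saa1 stood at 31976 and 16133 in WT and 7162 and 296 in SGP at 14 months. The part of this in the 14-month differences of the sex-biased lists was not tested. The change of the genotype difference between ages was tested by an interaction term in limma, which 3 of 11289 genes passed (0.0266%), and 8.6% had an unadjusted p under 0.05. Among the male-biased genes, 30 of 44 had an unadjusted interaction p under 0.05, all with a higher difference at 14 months. This term holds the 6-month difference itself and is no separate evidence for it. SGP library 1 of 14 months had pancreas markers at 3590 and muscle markers at 259, where the other 14-month libraries had at most 271 and 1.94.

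The 8 genes past the threshold fell into those that differed in the same direction at 14 months and those that did not. Ctse stood at 2.92 and 9.32 in WT and 59.96 and 54.6 in SGP at 14 months, a difference of 3.19. Pm20d1 stood at 146 and 181 in WT and 329 and 344 in SGP, a difference of 1.04, and Cfhr2 at 394 and 424 in WT and 263 and 279 in SGP, a difference of -0.59. For these 3 the genotypes did not overlap at either age, with the same direction at both. The share of all genes without overlap at 14 months was not counted, and with 2 libraries per genotype lack of overlap is a weak criterion. Hamp2 stood at 35.0 and 404 in WT and 892 and 155 in SGP, a wide spread with overlap and a difference of 1.63. Elovl3 stood at 386 and 297 in WT and 328 and 358 in SGP at 14 months, a difference of 0.02. Levels are not compared across the ages, since their tables were normalized separately. Susd4 differed by 0.24 and Cyp4a12b by -0.01 at 14 months, both with overlap. Mfsd2a stood at 59.3 and 107 in WT and 49.96 and 51.5 in SGP at 14 months, a difference of -0.64. Its genotypes did not overlap at either age, but SGP was above WT at 6 months and below it at 14 months. None of the 8 passed the interaction test, with limma adjusted p from 0.0838 for Mfsd2a to 0.884 for Pm20d1, so a difference between the ages was not shown for any of them.

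**Figure D5:**
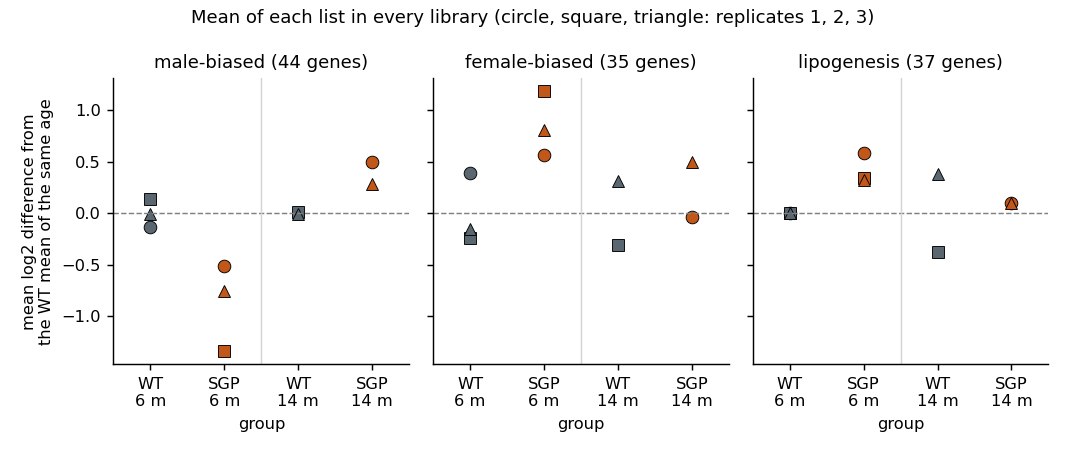
Mean over the tested genes of a list in each library, as the log2 difference from the WT mean of the same age, for male-biased (44), female-biased (35) and lipogenesis genes (37) at 6 and 14 months (m). The 3 SGP libraries of 6 months lie at -0.51 to -1.34 for male-biased genes, below the WT libraries, while both SGP libraries of 14 months lie above theirs.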

How the data were processed

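Liver RNA of male mice was profiled by CEL-Seq. The authors deposited 1 table of normalized counts per age, a signal in which the reads of each gene are divided by a size factor of the library. Per the labels, the tools were FastQC 0.11.5, Trim Galore, cutadapt 1.10, TopHat2 2.1.0, Bowtie2 2.2.6, HTSeq 0.6.1 and DESeq2 1.18.1, with build GRCm38.p6. Whether counting used strand, and how reads of near-identical genes were assigned, is not given in the sources used here. Groups came from the labels, and 2 samples of 14 months had no column of values and were not analysed here. The paper states that 1 WT and 1 SGP sample of this age were left out as outliers in a principal component analysis. The 14-month groups were thus chosen after their expression was seen. Levels were not compared across the ages because the tables were normalized separately.

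Genes whose mean over the 6 libraries of 6 months reached 5 normalized counts were tested on log2(normalized count + 1) with limma 3.58.1 (R 4.3.3, moderated test with a variance trend, Benjamini-Hochberg adjustment, threshold 0.05). The interaction with age used limma over all 10 libraries. Unadjusted p-values in the text come from the same model. Dividing each value by that of 1 read gave whole reads within 0.05 for 100% of the nonzero values checked. The largest values were left out of this check. All values were rounded to whole reads, on which edgeR 4.0.16 and DESeq2 1.42.0 were run as alternatives. The other alternatives were other pseudocounts, other filters, no variance trend, other scalings and leaving out each library. The fits were tested on simulated data. The 6-month libraries held 3167214 to 4409900 reads, and intervals and floors cover counting error only. With 3 libraries against 3, an exact permutation test of 1 gene cannot give a two-sided p below 0.10.

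The text names every gene past the threshold, then up to 10 genes per direction with the smallest p, a mean of at least 20 and no overlap, then the preset main genes of each list and up to 4 members per direction with an unadjusted p under 0.05. Genes named to account for members without reads, or in the neighbourhood of Ctse and as cell type markers, were added after their values were seen. The comparison and the gene lists were chosen with earlier results of these data known. Promoter windows came from RefSeq (GRCm38.p6), and the letters TTCNNNGAA and GGCGCC, which do not overlap each other, were searched in them on both strands. Some items are not reported here.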

Additional observations from a re-analysis of the deposited data

Results flagged for a closer look

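For 3 genes the genotype difference itself differed between 6 and 14 months in limma, tested by the interaction of age and genotype. Hspa1b, a heat shock protein gene, was at 9.02, 5.50 and 11.1 normalized counts in WT and 20.2, 13.2 and 9.06 in SGP at 6 months, and at 254 and 183 in WT and 17.8 and 13.7 in SGP at 14 months. Its difference changed by -4.35 on the log2 scale (SE 0.52, limma adjusted p = 0.0107). Mt2, a metallothionein gene, was at 22.6, 24.2 and 52.6 in WT and 35.1, 39.5 and 144 in SGP at 6 months, and at 4974 and 2930 in WT and 133 and 39.9 in SGP at 14 months. Its difference changed by -6.60 (SE 0.82, limma adjusted p = 0.0107). In both genes the genotypes overlapped at 6 months, and at 14 months both WT libraries lay above both SGP libraries. The change was not confined to these genes. Of 19 immediate early, heat shock and metallothionein genes, 18 were lower in SGP at 14 months, and 8 had an unadjusted limma interaction p under 0.05. Of 33 acute-phase genes, 32 were lower at 14 months. An unadjusted limma interaction p under 0.05 was found for 23 of the 33, against 8.6% of all genes.

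Aox3, an aldehyde oxidase gene, was lower in every SGP library at 6 months and higher in both at 14 months. It was at 1565, 1953 and 2069 in WT and 1186, 859 and 1222 in SGP at 6 months (-0.78), and at 863 and 934 in WT and 1616 and 1732 in SGP at 14 months (0.90). The difference changed by 1.68 (SE 0.23, limma adjusted p = 0.0242). No group reached 4 libraries at 6 months, so single libraries were not tested as extremes.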

How the results depend on the processing

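At 6 months 8 genes passed the threshold. Of the alternatives, a pseudocount of 5 gave 14, no filter on low values 127 of 28513 tested, and DESeq2 39, and each of these held all 8. Without a variance trend limma gave 0, with 631 at an unadjusted p under 0.05, where edgeR gave 8. Leaving out 1 library gave 2 to 17: 2 without WT library 2, 3 without WT library 3, 4 without SGP library 3, 14 without SGP library 2 and 17 without SGP library 1. The cause was not tested. Direction held for all 8 genes in all 15 alternatives.

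For the change between ages, the 3 genes became 7 with a pseudocount of 5, 9 with no filter, 13 scaled by reads outside the mitochondrial genome and 76 in DESeq2. Without a variance trend limma gave 0, with 857 at an unadjusted p under 0.05, where edgeR gave 3. Leaving out 1 library gave 0 to 33: 0 without 14-month WT library 2 (829 unadjusted), 33 without 14-month WT library 3 and 18 without 14-month SGP library 1. At 6 months it gave 1 without WT library 2, 5 without WT library 1, and 11, 6 and 8 without SGP libraries 1, 2 and 3.

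The list counts were rerun by a choice made after seeing the data. Male-biased genes lower at an unadjusted p under 0.05 were 32 of 44, 21 without a variance trend and 22 to 33 with 1 library left out. Female-biased genes higher were 15, with 10 to 18, and lipogenesis genes higher were 18, with 13 to 19. Of 2444 values of the other named genes under alternatives, 98 came past the threshold, 9 changed sign by more than the SE, and the other 2337 did neither. No paired analysis was possible because the labels give the genotypes no shared replicate numbers. With 3 libraries per genotype at 3167214 to 4409900 reads, genes under a mean of 5 were not assessed.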
